A study of Mus musculus with 16 samples.

Results

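Cathepsins are the proteases of the lysosome, and their transcripts were followed here through the immune cells of 2 mouse tumors, with and without radiation. The members were the 10 cathepsin genes Ctsa, Ctsb, Ctsc, Ctsd, Ctsh, Ctsk, Ctsl, Ctss, Ctsw and Ctsz, picked by name from the 31053 features of each matrix. Most cathepsins are cysteine proteases made as inactive precursors, carried to endosomes and lysosomes and activated in their acid interior, where they break down engulfed and worn-out proteins. In macrophages and dendritic cells (DCs), several of them also trim antigens and the invariant chain that occupies the groove of new MHC class II molecules. In cytotoxic lymphocytes, cathepsin C activates the granzymes of the killing granules.

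Libraries came from live CD45+ (leukocyte) cells sorted out of tumors grown under the skin of the right flank of C57BL/6J mice, and were made with the 10x Genomics 3' version 3.0 chemistry, which counts transcript molecules by UMI (unique molecular identifier). MC38, a mouse colorectal carcinoma line, and Panc02-SIY, a mouse pancreatic adenocarcinoma line carrying the model antigen SIY, were each left untreated (NT) or given a single CT-guided dose of 12 Gy (RT) 24 h before harvest, which gave 4 groups of 4 libraries. All groups share the host strain and the CD45+ sort, neither line is a tumor that arose in its host, and each was grown at its own cell number, so tumor line, host response and cell number cannot be told apart. Nothing in the labels says which animal each library came from, and p-values measure only the spread between these libraries, which may be technical. The study's design text and its methods differ on the number of animals per group, and by the lower number some libraries of a group share an animal, in which case the SDs and p-values are too small.

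The 16 matrices held 28678 barcodes. MC38 libraries held 1008 to 1460 barcodes and 3240877 to 10121198 UMIs each, and Panc02-SIY libraries 1180 to 4538 barcodes and 5327146 to 43776342, ranges that overlapped. The median UMIs per barcode did not overlap, at 1419 to 2070.5 in MC38 and 3175 to 6412 in Panc02-SIY. Values from thinned libraries are given with the comparison of the tumors, with classes still assigned on the full counts. The library Panc02-SIY NT replicate 4 stood apart, with 43776342 UMIs and 1351 of the 2142 macrophage barcodes of its group. The 8 MC38 libraries shared most of their barcodes: their 9843 barcodes were 2632 distinct sequences, 769 of them present in all 8 libraries, and over MC38 library pairs the median overlap was 83.3% of the smaller library, against 5.54% over Panc02-SIY pairs. In MC38 NT, 856 of the 3138 macrophage barcodes were richest in their own library, and these had a median of 20670 UMIs against 1934 over all of them. Of the monocyte barcodes of that group, 44 of 451 were richest in their own library. Whether shared barcodes are the same cells was not tested. Several differences between the tumors, none of them in monocytes, and the counts of calls are given also with each barcode kept once. It was then kept only in the library where it had most UMIs.

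Barcodes were assigned to a cell class by the marker list of which they expressed most genes, and no cathepsin was a marker. The gate named 23755 barcodes (82.8%), of which 10026 were macrophage-like, 7501 T cell-like, 2106 NK cell-like, 1680 neutrophil-like, 1590 monocyte-like, 526 DC-like and 194 B cell-like, and the classes are called by these names for short. Many barcodes lay near the edge of the gate: 43.0% of monocyte, 36.1% of DC and 17.1% of macrophage barcodes lay within 1 marker of the cut. These had only 3 markers of their class, or a lead of only 1 over whichever class came next. In Panc02-SIY NT only 6 of the 8 macrophage markers and 3 of the 7 markers of the DC2 subset were highest in their own class. MC38 held 14 neutrophil barcodes in all, so neutrophils were described for Panc02-SIY only. Levels below are in CPM, the gene's UMIs per 1000000 UMIs of its class in 1 library.

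The promoters of Ctss, Ctsc and Ctsz are shown because these genes were higher in MC38 in most classes in both tumor comparisons described below, and because their RefSeq start is also the start in the gene annotation used for positions. Each line is the 250 bases before the start, 5' to 3' on the gene's own strand, from RefSeq on GRCm38.p6: Ctss at chr3:95526536-95526785 (plus strand), Ctsc at chr7:88277835-88278084 (plus strand) and Ctsz at chr2:174439040-174439289 (minus strand). Capitals mark matches, on either strand, to GAGGAA (reverse complement TTCCTC), the core bound by the myeloid factor PU.1, or to the core of an interferon-stimulated response element, a pair of GAAA blocks with 2 bases between them.
Ctss: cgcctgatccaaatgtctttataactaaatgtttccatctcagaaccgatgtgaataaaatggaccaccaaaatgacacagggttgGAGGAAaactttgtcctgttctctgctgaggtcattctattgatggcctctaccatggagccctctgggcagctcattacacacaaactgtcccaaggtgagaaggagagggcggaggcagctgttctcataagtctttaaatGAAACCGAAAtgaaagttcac
Ctsc: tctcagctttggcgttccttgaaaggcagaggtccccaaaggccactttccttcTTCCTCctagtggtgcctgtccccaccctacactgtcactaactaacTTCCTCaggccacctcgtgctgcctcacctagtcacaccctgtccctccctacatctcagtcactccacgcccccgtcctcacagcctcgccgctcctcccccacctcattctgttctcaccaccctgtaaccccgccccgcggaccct
Ctsz: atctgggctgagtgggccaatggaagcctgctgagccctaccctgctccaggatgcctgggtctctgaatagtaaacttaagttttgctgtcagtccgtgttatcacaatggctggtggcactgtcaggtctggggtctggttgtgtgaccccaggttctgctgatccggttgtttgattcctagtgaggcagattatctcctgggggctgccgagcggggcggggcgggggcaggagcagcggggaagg

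The Ctss window held GAGGAA starting 164 bases and GAAACCGAAA starting 21 bases before the start, and the Ctsc window held TTCCTC at 196 and 149 bases before it. The Ctsz window held neither of these motifs nor CACGTG, the palindromic core of the sites of lysosomal gene regulators such as TFEB. None of the capital runs overlapped another. Of all 32851 windows of this length, 23.3% held GAGGAA, 2.98% the interferon-stimulated response element core and 6.02% CACGTG, and a match is a description of the letters only. Among the other members with a window, CACGTG occurred in those of Ctsa, Ctsd and Ctsl, and GAGGAA in that of Ctsk; 7 of the 10 members had a window, and Ctsb, Ctsh and Ctsw had none. Ctss and Ctsk are neighbours on chromosome 3, 17.4 kb apart, with Ctsk at 95499256-95509362 and Ctss at 95526786-95556403, both on the plus strand of GRCm38.

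Cathepsins fell into 3 patterns across the cells. Ctss, Ctsc, Ctsz, Ctsh, Ctsb, Ctsa and Ctsl were highest in macrophages in both tumors among the larger classes, with the rarest classes described apart, Ctsw was high in NK cells and T cells, and Ctsd was spread over macrophages, neutrophils, NK cells and T cells. Ctsk, the bone-matrix collagenase of osteoclasts, was almost absent. Neighbouring classes in each order were compared within libraries by an exact two-sided sign-flip permutation test on log2(CPM + 10), Benjamini-Hochberg adjusted over 40 pairs in MC38 and 60 in Panc02-SIY; 27 and 29 pairs passed at 0.05, and the smallest p that 8 libraries allow is 0.0078. With each MC38 barcode kept once, 0 of the 11 pairs that could still be compared passed.

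**Figure D1:**
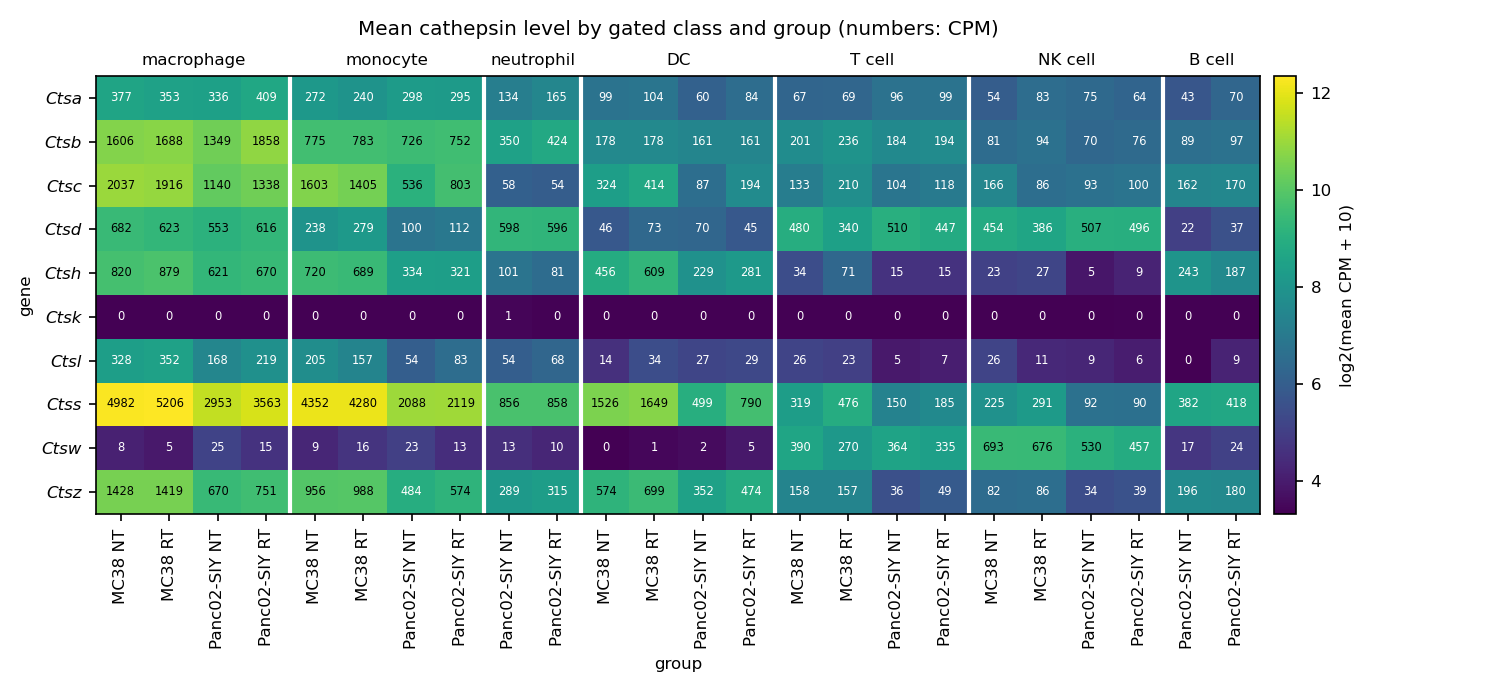
Mean level (CPM) of the 10 cathepsins, 1 row each, in each class and group (columns), coloured by log2(mean CPM + 10), with yellow for high and dark purple for low levels. Ctss is brightest in MC38 macrophages (5094 CPM over both MC38 groups), Ctsw is bright in the NK cell and T cell columns, and the Ctsk row is dark throughout.

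Cathepsin S (Ctss), the protease that makes the last cut of the invariant chain in antigen-presenting cells, was the most abundant member, with 385855 UMIs in all. Averaged over the 8 MC38 libraries it stood at 5094 CPM in macrophages, 4316 in monocytes, 1588 in DCs, 398 in T cells and 258 in NK cells. All neighbours in this order differed except T cells and NK cells (adjusted p = 0.0754, exact permutation). In Panc02-SIY the order was macrophages (3258 CPM), monocytes (2103), neutrophils (857), DCs (645), B cells (403), T cells (167) and NK cells (90.9), where neutrophils against DCs and DCs against B cells did not differ beyond the spread.

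Cathepsin Z (Ctsz), a carboxypeptidase, and cathepsin H (Ctsh), an aminopeptidase, followed the same descent. Ctsz fell from 1423 CPM in MC38 macrophages to 972 in monocytes, 637 in DCs, 157 in T cells and 83.8 in NK cells, and each step passed the test. Ctsh stood at 850, 705, 533, 52.6 and 25.3 CPM in the same order. In Panc02-SIY, B cells held 211 CPM of Ctsh and 187 CPM of Ctsz, while T cells held 14.9 and 42.5.

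Cathepsin C (Ctsc) averaged 1977 CPM in MC38 macrophages, 1504 in monocytes and 369 in DCs. Its level in the lymphocytes whose granzymes it activates was far lower, 171 CPM in MC38 T cells, 126 in MC38 NK cells, 111 in Panc02-SIY T cells and 96.5 in Panc02-SIY NK cells, and T cells and NK cells did not differ beyond the spread. Neutrophils, whose granule serine proteases also need it, held the lowest Panc02-SIY level, 56.0 CPM.

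Cathepsin B (Ctsb), a lysosomal endo- and carboxypeptidase, cathepsin L (Ctsl), an endopeptidase, and cathepsin A (Ctsa), a serine carboxypeptidase that also protects lysosomal galactosidase and sialidase, were high in macrophages. Ctsb averaged 1647 CPM in MC38 and 1603 CPM in Panc02-SIY macrophages and 779 and 739 CPM in monocytes. Ctsl stood at 340 CPM in MC38 and 194 CPM in Panc02-SIY macrophages and at 24.3 CPM or less in MC38 DCs, T cells and NK cells. Ctsa ranged from 365 CPM in MC38 macrophages to 67.9 CPM in T cells.

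Ctsd encodes cathepsin D, the main aspartic protease of the lysosome. In MC38 its mean level was 653 CPM in macrophages, 420 in NK cells, 410 in T cells, 258 in monocytes and 59.7 in DCs, and NK cells and T cells did not differ beyond the spread. In Panc02-SIY neutrophils (597 CPM) and macrophages (584 CPM) did not differ beyond the spread, NK cells (502) and T cells (479) came next, and monocytes (106), DCs (57.5) and B cells (30.9) were lowest. Neutrophil libraries held 749, 588, 513 and 543 CPM without and 598, 583, 634 and 570 CPM with radiation, and the groups overlapped.

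Ctsw encodes cathepsin W, a cysteine protease of cytotoxic lymphocytes. It averaged 684 CPM in MC38 NK cells against 330 in T cells, and 494 against 350 CPM in Panc02-SIY. The next class held at most 20.8 CPM. In MC38 macrophages the median Ctsw level over 4 libraries was 1.61% (NT, 0.416% to 7.63%) and 1.85% (RT, 1.42% to 2.82%) of that in T cells. The summed T cell markers there stood at medians of 0.505% (0.478% to 0.602%) and 0.502% (0.396% to 0.821%) of their T cell level. The Panc02-SIY medians were 6.66% and 4.41% for Ctsw beside 5.36% and 4.04% for the markers, with ranges that overlapped.

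**Figure D2:**
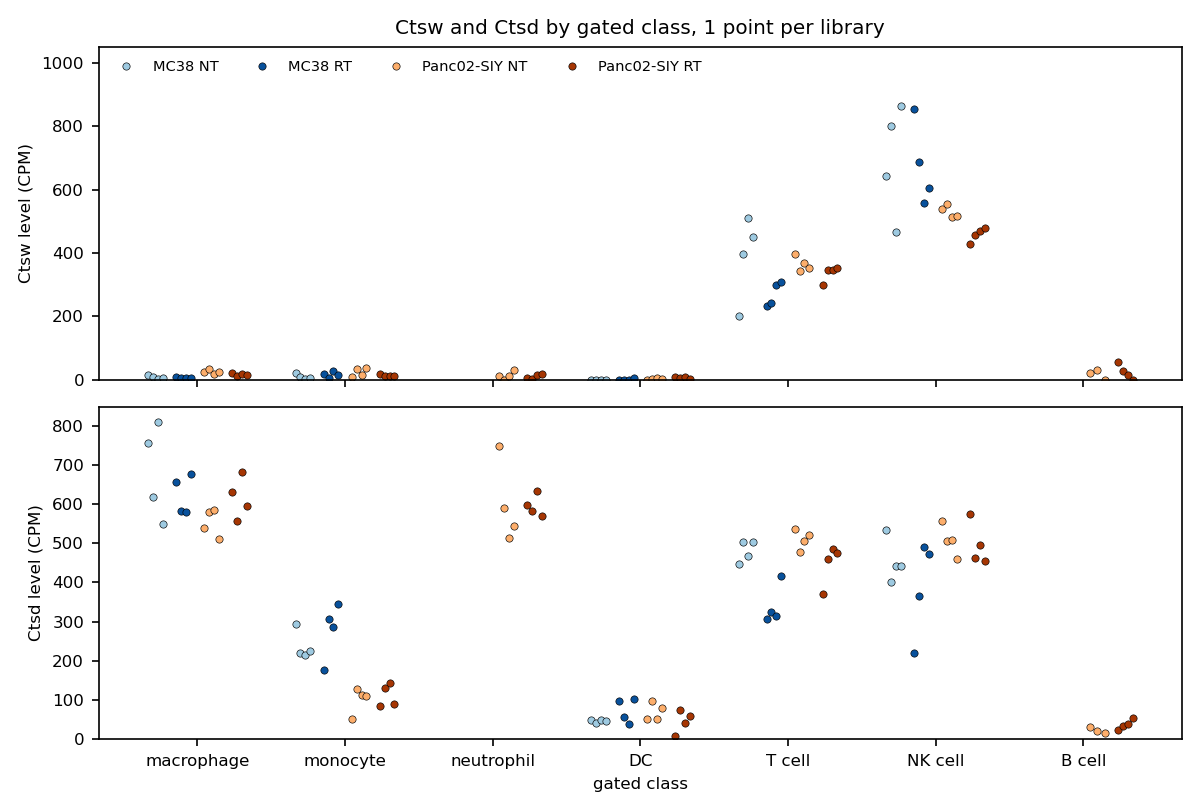
Level (CPM, linear axis) of Ctsw and Ctsd in each library, by class, with 1 point per library and colours for the 4 groups. Ctsw points rise above 200 CPM in T cells and NK cells only, whereas Ctsd points lie between 219 and 808 CPM in macrophages, T cells, NK cells and the Panc02-SIY neutrophils.

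Ctsk gave 56 UMIs in 21 of the 28678 barcodes, 42 of them in 8 barcodes outside every class. Macrophages held 3 of these UMIs. Of the 21 barcodes, 4 (19%) carried at least 3 stromal or carcinoma markers, against 311 of 28657 other barcodes (1.09%). Ctsk was too rare for any fit.

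Macrophages made up most of the MC38 libraries and held most cathepsin UMIs there. In MC38 NT they held on average 83.5% of a library's UMIs and 90.5% to 94.9% of the UMIs of Ctsa, Ctsb, Ctsc, Ctsd, Ctsh, Ctsl, Ctss and Ctsz, but 16.8% of those of Ctsw. In Panc02-SIY NT they held on average 18.5% of a library's UMIs, and 66.6% of those of Ctsh, 64.3% of Ctss, 61.6% of Ctsc, 60.9% of Ctsl and 21.4% of Ctsd. T cells there gave 58.4% of Ctsd UMIs, close to their 54.4% of all UMIs, and 76.8% of those of Ctsw. These shares are means over the 4 libraries of a group, each weighted alike, and hold for this sort and these gates only. Their spread between libraries is not given here. Macrophage barcodes ran from 130 to 1351 a library in Panc02-SIY NT.

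The first pair of comparisons asked whether the same class carried different cathepsin levels in the 2 tumors, in untreated and in irradiated libraries. Ctss, Ctsc, Ctsh, Ctsz, Ctsl and Ctsd were higher in MC38 in monocytes in both, and the first 5 of these also in macrophages. Each class was fitted across all its genes with edgeR's quasi-likelihood test on the summed counts, and a gene was called at a Benjamini-Hochberg adjusted p under 0.1 and a fold over 1.3. Of 42 member-by-class pairs, 26 were called without radiation (24 higher in MC38, 2 lower) and 27 with it (26 higher, 1 lower), and 22 were called in both. The tumors differed at large: 50.9% of all genes tested in macrophages were called without radiation and 54.9% with it, with 40.1% and 47.8% in monocytes, 11.2% and 11.4% in DCs, 17.5% and 21.7% in T cells and 13% and 19.7% in NK cells. The shares called higher in MC38 were 22.9% and 25.4% in macrophages, 19.9% and 23.4% in monocytes, 6.59% and 7.03% in DCs, 9.08% and 11.5% in T cells and 5.88% and 9.23% in NK cells. Those called lower were 28.0% and 29.5% in macrophages, 20.3% and 24.4% in monocytes, 4.58% and 4.39% in DCs, 8.45% and 10.2% in T cells and 7.09% and 10.5% in NK cells. Called members without and with radiation numbered 8 and 6 of 9 in macrophages, 6 and 6 of 8 in monocytes, 4 and 4 of 7 in DCs, 4 and 5 of 9 in T cells and 4 and 6 of 9 in NK cells. Fold changes are on the log2 scale after trimmed-mean (TMM) scaling of libraries, so that their size and sign can differ from those of the CPM. The share of all genes whose libraries did not overlap between the tumors is not given here. Statements below that libraries did not overlap therefore describe the members and do not set them apart from other genes.

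**Figure D3:**
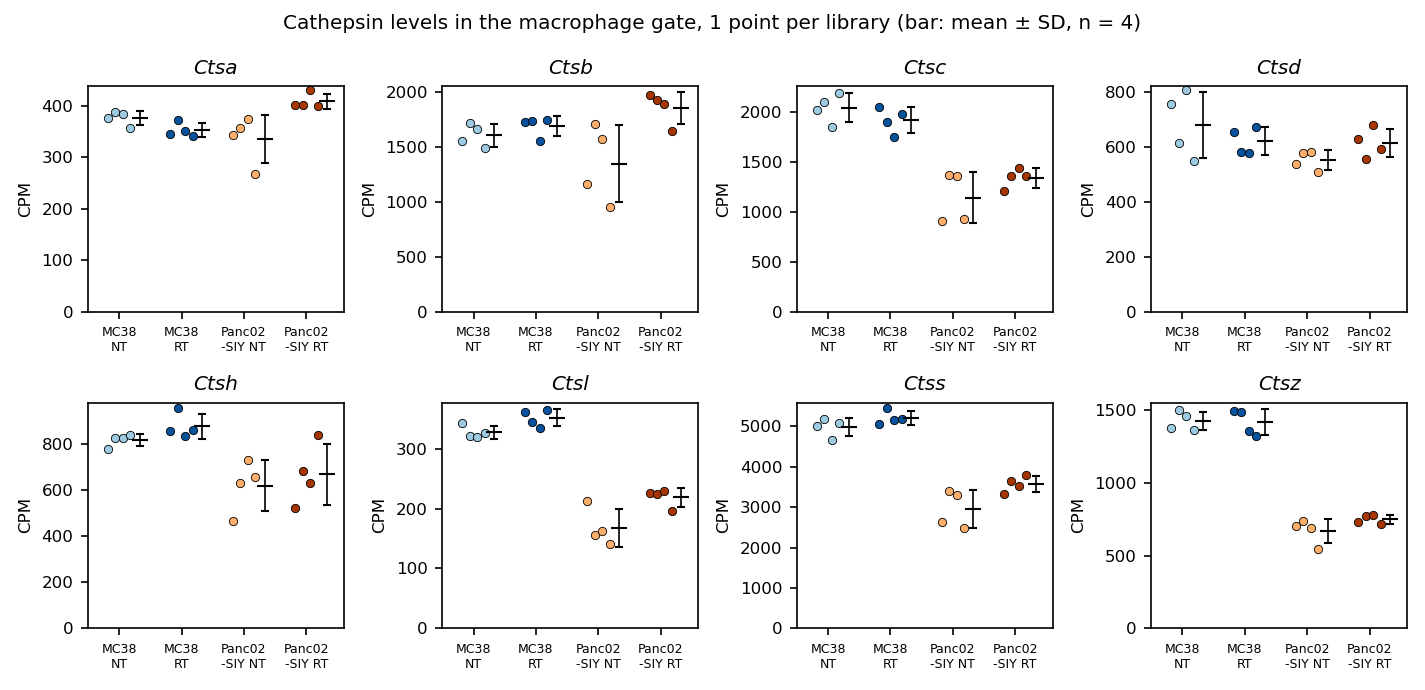
Level (CPM) of 8 cathepsins in macrophages, 1 panel per gene, with 1 point per library and bars for the mean ± SD (n = 4 libraries) of each group. All MC38 points lie above all Panc02-SIY points for Ctsc, Ctsl, Ctss and Ctsz, while the groups overlap for Ctsb and Ctsd.

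In macrophages, Ctss stood at 5008, 5190, 4652 and 5077 CPM in the MC38 NT libraries and at 2636, 3403, 3300 and 2473 in Panc02-SIY NT. With radiation the levels were 5047, 5440, 5160 and 5176 CPM against 3313, 3639, 3515 and 3785. No MC38 library came down to the highest Panc02-SIY one. The log2 fold change was 0.95 ± 0.09 (SE, adjusted p = 7.56e-08) without and 0.83 ± 0.09 (adjusted p = 3.8e-07) with radiation, and 0.92 and 0.81 with each barcode kept once.

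Ctsz had the largest increase in MC38 macrophages of the members tested. Its levels were 1382, 1502, 1461 and 1366 CPM in MC38 NT and 703, 738, 693 and 545 in Panc02-SIY NT macrophages. Irradiated macrophages held 1495, 1493, 1362 and 1326 CPM in MC38 and 733, 773, 783 and 716 in Panc02-SIY, so both pairs of groups were apart by a wide margin. The log2 fold changes were 1.29 ± 0.09 (SE, adjusted p = 1.56e-09) and 1.20 ± 0.09 (adjusted p = 3.05e-09), and 1.22 and 1.06 with each barcode kept once.

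Ctsl and Ctsc were 1.74 to 2.29-fold higher in MC38 macrophages by edgeR after TMM scaling, and the CPM below give smaller folds. Over the refits the lowest log2 fold changes were 1.00 and 0.69 for Ctsl, without and with radiation. For Ctsc they were 0.64 and 0.52. Ctsl read 343, 321, 320 and 326 CPM in MC38 NT against 213, 156, 162 and 141 in Panc02-SIY NT, and 362, 344, 336 and 365 against 226, 224, 230 and 196 CPM with radiation, with log2 fold changes of 1.20 ± 0.10 and 0.98 ± 0.10 (SE). Ctsc read 2014, 2097, 1847 and 2190 CPM against 908, 1369, 1353 and 931, and 2041, 1900, 1747 and 1977 against 1205, 1355, 1440 and 1353 with radiation, with log2 fold changes of 1.03 ± 0.12 and 0.80 ± 0.11. For both genes every MC38 library exceeded every Panc02-SIY library, and the adjusted p was at most 9.69e-06 in the 4 tests by edgeR.

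Ctsh, Ctsb, Ctsd and Ctsa differed less. Ctsh had log2 fold changes of 0.59 ± 0.13 (SE, adjusted p = 0.000593) without and 0.67 ± 0.13 (adjusted p = 0.000175) with radiation, but the untreated difference fell to 0.34 (adjusted p = 0.136) once the 5% of barcodes with most UMIs were removed. Ctsb and Ctsd were called higher in MC38 without radiation only, at 0.45 ± 0.13 (adjusted p = 0.0076) and 0.50 ± 0.11 (adjusted p = 0.000731), and that removal took both to about no difference, at −4.66e-05 (adjusted p = 1.00) and −0.02 (adjusted p = 0.953). Without Panc02-SIY NT replicate 4 the Ctsb difference was 0.30, below the fold asked for. Ctsa reached 0.37 ± 0.09 (adjusted p = 0.00207) without radiation, just under the fold asked for, and 0.07 ± 0.09 with it, where its CPM was lower in MC38 (353 ± 14.2 against 409 ± 14.5, SD, n = 4).

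Ctsw was the member that was lower in MC38 macrophages in both comparisons. Its levels were 15.4, 8.32, 2.13 and 5.04 CPM in MC38 NT against 25.3, 34.3, 17.8 and 24.5 in Panc02-SIY NT, and 6.52, 5.31, 4.48 and 4.39 against 19.4, 10.3, 16.1 and 14.6 with radiation. The groups did not overlap, and the log2 fold changes were −1.62 ± 0.38 (SE, adjusted p = 0.00214) and −1.25 ± 0.44 (adjusted p = 0.026). Summed T cell markers in the macrophage gate also ran higher in Panc02-SIY, 78.1 to 314 CPM without and 169 to 255 CPM with radiation against at most 51.7 CPM in MC38, and their part in the Ctsw difference was not tested. Summed macrophage markers in this gate reached 26444 to 27621 CPM in MC38 NT and 9488 to 14142 CPM in Panc02-SIY NT, with 25615 to 29255 and 13569 to 14776 CPM after radiation, and stromal and carcinoma markers 28.6 to 44.5 against 150 to 372 CPM without radiation. Their part in the other macrophage differences was not tested.

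Monocytes showed wider differences than macrophages for several members in log2 fold change, though the difference between the 2 classes was not tested. The monocyte gates differed between the tumors. Without and with radiation, median UMIs per barcode were 1042 and 1191 in MC38 against 10068 and 9979 in Panc02-SIY. Barcodes within 1 marker of the cut were 51.4% and 55.6% against 29.8% and 23.8%. The part of this in the monocyte differences was not tested. Ctsc stood at 1453, 1660, 1950 and 1347 CPM in MC38 NT monocytes and at 328, 698, 538 and 579 in Panc02-SIY NT, a log2 fold change of 1.70 ± 0.16 (SE, adjusted p = 9.08e-09). With radiation the levels were 1432, 1468, 1237 and 1483 CPM against 740, 752, 800 and 921, a change of 1.04 ± 0.15 (adjusted p = 4.81e-06). Again no libraries of the 2 tumors overlapped.

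Ctss in monocytes ran at 4407, 3891, 4674 and 4436 CPM in MC38 NT and 2043, 2120, 2086 and 2103 in Panc02-SIY NT. Irradiated monocytes held 4183, 4535, 3975 and 4429 against 2073, 2027, 1991 and 2384 CPM. The spread within each Panc02-SIY group was small beside the gap, and the log2 fold changes were 1.20 ± 0.10 (adjusted p = 1.03e-09) and 1.25 ± 0.10 (SE, adjusted p = 2.81e-10).

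The other called members of monocytes were Ctsh, at 1.24 ± 0.14 and 1.33 ± 0.13 (log2 fold change ± SE, without and with radiation), Ctsz at 1.12 ± 0.13 and 1.01 ± 0.12, Ctsd at 1.28 ± 0.24 and 1.56 ± 0.20, and Ctsl at 2.16 ± 0.27 and 1.18 ± 0.21. Their adjusted p was at most 0.000171. Monocyte Ctsd was low in both tumors, 215 to 295 CPM in MC38 NT and 51.7 to 127 CPM in Panc02-SIY NT, and Ctsl ranged from 124 to 268 and from 35.2 to 69.0 CPM. Ctsa and Ctsb were not called in monocytes, with Ctsb at 0.25 ± 0.12 (adjusted p = 0.111) and 0.29 ± 0.11 (adjusted p = 0.0402, fold 1.22). Macrophage markers summed to 3716 to 6177 CPM in MC38 monocytes and 1681 to 2465 CPM in Panc02-SIY ones, and their part in these differences was not tested.

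**Figure D4:**
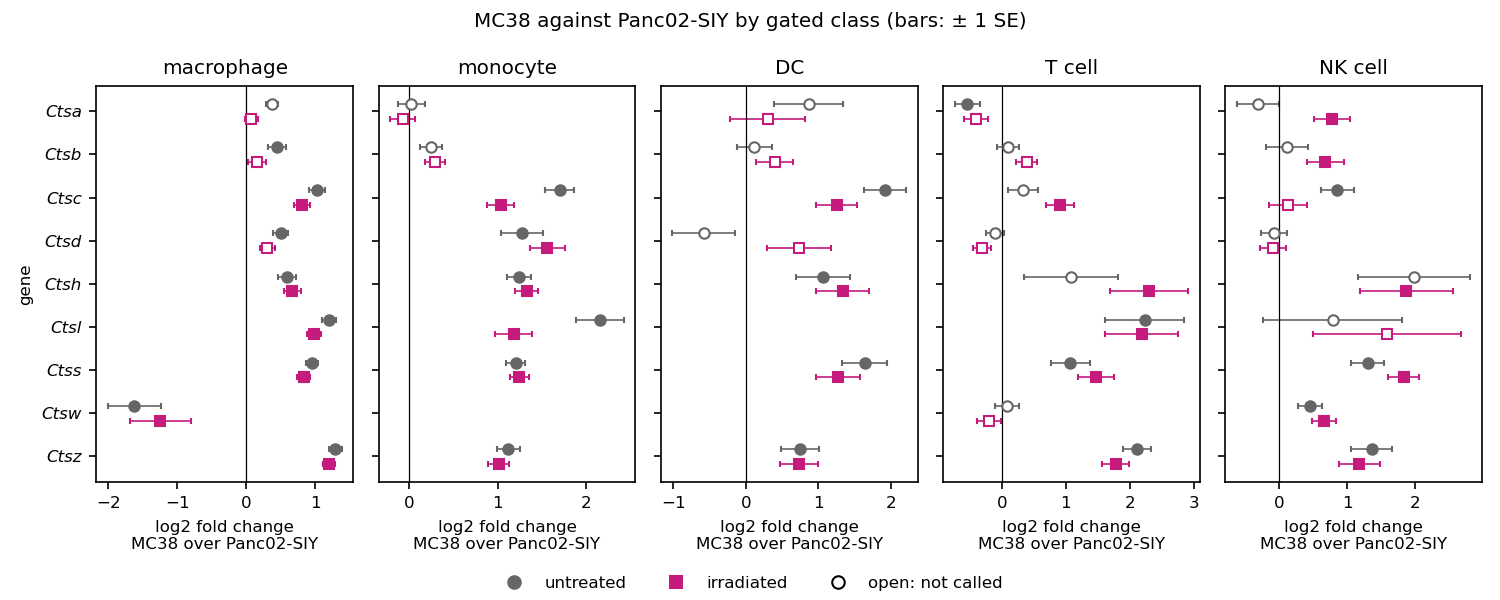
Log2 fold change of MC38 over Panc02-SIY (TMM-scaled, bars ± SE) for each cathepsin in 5 classes, with circles for untreated and squares for irradiated libraries and filled symbols for called differences. Ctss and Ctsz are filled to the right of 0 in every class, whereas Ctsb and Ctsa lie near 0 in most.

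In DCs, Ctsc and Ctss were the clearest of the called members. Ctsc read 359, 403, 236 and 299 CPM in MC38 NT and 117, 103, 59.2 and 68.0 in Panc02-SIY NT, and 352, 607, 316 and 380 against 171, 211, 257 and 135 with radiation, with log2 fold changes of 1.92 ± 0.29 (SE, adjusted p = 0.00123) and 1.26 ± 0.28 (adjusted p = 0.0133). Ctss read 2490, 766, 1182 and 1666 against 648, 456, 477 and 417 CPM without radiation, and 1839, 1546, 1091 and 2121 against 955, 680, 989 and 536 with it. MC38 libraries were the higher ones throughout, but they spread widely. The Ctss log2 fold changes were 1.64 ± 0.31 (adjusted p = 0.00426) and 1.27 ± 0.31 (SE, adjusted p = 0.0193), and the untreated one was 1.04 (adjusted p = 0.182) under a stricter gate.

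Ctsh and Ctsz were called in DCs near the threshold. Ctsh had log2 fold changes of 1.06 ± 0.37 (SE, adjusted p = 0.0941) and 1.34 ± 0.37 (adjusted p = 0.0378), and Ctsz 0.75 ± 0.26 (adjusted p = 0.0907) and 0.74 ± 0.26 (adjusted p = 0.098). Most refits ended these calls apart from that of irradiated Ctsh. Untreated Ctsh lost its call in 22 of 30 refits, among them those without MC38 NT replicate 1, 3 or 4 or Panc02-SIY NT replicate 2, 3 or 4, and fell to 0.67 (adjusted p = 0.344) with the stricter gate. Untreated Ctsz lost it in 17 of 30, the same 6 libraries among them, and fell to 0.21 (adjusted p = 0.74) with that gate. Irradiated Ctsz lost it in 22 of 28, among them those without MC38 RT replicate 1, 2 or 4 or any one Panc02-SIY RT library, and fell to 0.28 (adjusted p = 0.604) without the 5% of barcodes with most UMIs. Irradiated Ctsh lost it in 2 of 28, at 1.12 (adjusted p = 0.126) without MC38 RT replicate 4 and 1.16 (adjusted p = 0.104) without Panc02-SIY RT replicate 4. With each barcode kept once the untreated DC values were 1.84 for Ctsc, 1.97 for Ctss, 1.33 for Ctsh (adjusted p = 0.173) and 0.90 for Ctsz (adjusted p = 0.123), and the irradiated ones could not be fitted for want of barcodes. The makeup of the DC gate differed too: DC1 barcodes were 69.5% of it in Panc02-SIY NT and 21.2% in MC38 NT, with 44.7% and 27.1% after radiation. Macrophage markers in the DC gate summed to 504 to 1289 CPM in MC38 and 84.5 to 371 CPM in Panc02-SIY. The part of either in the DC differences was not tested.

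Lymphocytes repeated the difference at low levels for Ctsz and Ctss. T cells held 235, 95.5, 116 and 185 CPM of Ctsz in MC38 NT against 42.7, 32.4, 35.8 and 34.1 in Panc02-SIY NT, and 137, 169, 179 and 142 against 55.0, 50.4, 54.8 and 34.7 with radiation, with log2 fold changes of 2.11 ± 0.21 (SE, adjusted p = 5.9e-07) and 1.78 ± 0.21 (adjusted p = 3.67e-06). NK cells held 100, 104, 69.8 and 53.9 CPM of Ctsz against 27.6, 42.1, 31.1 and 36.6, and 122, 77.6, 75.9 and 67.3 against 38.3, 37.3, 43.2 and 35.5 with radiation. All MC38 libraries were above all Panc02-SIY libraries in both classes. The MC38 NK cell levels of Ctsz rested on few counts, 23, 7, 3 and 6 UMIs without and 5, 7, 9 and 14 with radiation. In NK cells the log2 fold changes were 1.36 ± 0.30 (adjusted p = 0.00254; 1.03 and adjusted p = 0.196 without MC38 NT replicate 1) and 1.18 ± 0.30 (SE, adjusted p = 0.00597; 0.75 and adjusted p = 0.191 with each barcode kept once).

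Ctss in NK cells stood at 162, 311, 140 and 288 CPM in MC38 NT against 73.5, 110, 85.6 and 99.7 in Panc02-SIY NT, with a log2 fold change of 1.31 ± 0.25 (SE, adjusted p = 0.000595), and at 317, 233, 346 and 269 against 56.6, 88.7, 116 and 97.4 with radiation, 1.84 ± 0.23 (adjusted p = 3.55e-07). In T cells its log2 fold changes were 1.07 ± 0.30 (adjusted p = 0.0312) and 1.47 ± 0.29 (SE, adjusted p = 0.00358). The untreated T cell difference was not called with each barcode kept once (0.94, adjusted p = 0.115), without MC38 NT replicate 3 (0.89, adjusted p = 0.126) or without MC38 NT replicate 4 (0.92, adjusted p = 0.115).

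Several lymphocyte calls rested on 1 library. T cell Ctsl, at 9.38, 15.1, 14.5 and 64.7 CPM in MC38 NT, had a log2 fold change of 2.23 ± 0.62 that fell to 1.16 (adjusted p = 0.373) without replicate 4, and the irradiated one of 2.18 ± 0.57 fell to 1.02 (adjusted p = 0.395) without MC38 RT replicate 3. Irradiated MC38 T cells held 6.24, 0, 62.8 and 21.5 CPM of Ctsl, where the 0 allows up to 36.1 CPM in that library. The same irradiated library carried T cell Ctsc (0.91 ± 0.21, and 0.47 with adjusted p = 0.149 without it) and T cell Ctsh (2.30 ± 0.61, and 1.74 with adjusted p = 0.181 without it). NK cell Ctsc in untreated libraries (0.86 ± 0.25) was 0.64 (adjusted p = 0.142) without MC38 NT replicate 2, and NK cell Ctsa in irradiated ones (0.78 ± 0.27) was 0.10 (adjusted p = 0.903) without MC38 RT replicate 4. The lower T cell Ctsa in MC38 NT (−0.54 ± 0.20, adjusted p = 0.0726) was −0.17 (adjusted p = 0.772) with libraries thinned to a common mean of 2520 UMIs per barcode. That call was lost in 14 of 30 refits. Among them were the stricter gate and those without MC38 NT replicate 1, 2 or 3 or Panc02-SIY NT replicate 1, 2 or 3. NK cell Ctsb (0.68 ± 0.27, adjusted p = 0.0896) and Ctsh (1.88 ± 0.69, adjusted p = 0.0611) in irradiated libraries passed by little. The Ctsb call was lost in 16 of 30 refits, where the difference fell as low as 0.40, and the Ctsh call in 7 of 27. Ctsh rested on 0, 5, 4 and 4 UMIs in the NK cells of the MC38 RT libraries.

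Ctsw, the lymphocyte member, was called higher in MC38 NK cells. Its levels were 642, 800, 465 and 863 CPM in MC38 NT against 538, 553, 512 and 518 in Panc02-SIY NT, which overlapped (0.45 ± 0.17, adjusted p = 0.097; 0.34 and adjusted p = 0.252 with each barcode kept once), and 853, 687, 557 and 606 against 427, 455, 468 and 477 with radiation, which did not (0.66 ± 0.18, SE, adjusted p = 0.00846). The untreated call was lost in 14 of 30 refits, down to 0.26 (adjusted p = 0.431) without MC38 NT replicate 4, and also without MC38 NT replicate 1 or 2 or any one MC38 RT library. The irradiated call was lost with no filter on low counts (0.46, adjusted p = 0.137) and without the 5% of barcodes with most UMIs (0.45, adjusted p = 0.127). In T cells Ctsw gave 0.08 ± 0.18 and −0.21 ± 0.19. Ctsd, the other member with a high lymphocyte level, gave −0.11 ± 0.14 and −0.31 ± 0.14 in T cells and −0.08 ± 0.19 and −0.09 ± 0.19 in NK cells, none of them called.

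Macrophage transcripts also differed in these lymphocyte gates. Macrophage markers summed to 743 to 1553 CPM in MC38 T cells and 113 to 430 CPM in Panc02-SIY T cells, and to 480 to 1244 against 21.4 to 201 CPM in NK cells, with all 8 markers detected. Their part in the higher Ctss, Ctsz, Ctsc, Ctsl and Ctsh of MC38 lymphocytes was not tested.

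Keeping each barcode once gave 22 calls between the tumors without and 22 with radiation. The irradiated count leaves out DCs, which could not be fitted, and so covers fewer than the 42 pairs. Thinning every library to a mean of 2520 UMIs per barcode gave 24 and 24. The shares of all genes called under these settings are not given here. Thinning kept the classes assigned on the full counts and leaves expected levels unchanged, so it cannot show how depth acted on the gate. With thinned libraries the macrophage log2 fold changes without radiation were 0.94 for Ctss, 1.33 for Ctsz and 1.03 for Ctsc. The median over all genes tested in each of these comparisons lay between −0.08 and 0.03.

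The radiation comparisons asked what 12 Gy had done to cathepsin transcripts after 24 h. Untreated and irradiated MC38 libraries shared most of their barcodes, and the part of this in the MC38 radiation results was not tested. In Panc02-SIY macrophages Ctsb and Ctsl were called higher; they were 2 of 50 member-by-class pairs tested in that tumor, where 10.7% of all genes tested were called in macrophages (5.08% higher), 1.04% in monocytes, 0.0391% in neutrophils, 0.0% in DCs, 8.85% in T cells and 0.858% in NK cells. In MC38 0 of 42 pairs were called by edgeR and 0 by DESeq2. By edgeR 5 had an unadjusted p under 0.05 (14.8% of all genes in macrophages, 4.61% in monocytes, 6.29% in DCs, 8.48% in T cells and 7.74% in NK cells). The shares of all genes called by edgeR were 3.51% in macrophages, 0.0% in monocytes, 0.187% in DCs, 0.173% in T cells and 0.211% in NK cells.

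Ctsb in Panc02-SIY macrophages stood at 1164, 1704, 1571 and 957 CPM without and 1969, 1923, 1894 and 1646 CPM with radiation. The 3 lowest libraries were untreated, and the groups overlapped between 1646 and 1704 CPM. The log2 fold change was 0.46 ± 0.13 (SE, adjusted p = 0.0408). Without Panc02-SIY NT replicate 4 it was 0.33 (adjusted p = 0.108), and with only the 2 groups in the fit the adjusted p was 0.25.

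Ctsl read 213, 156, 162 and 141 CPM without and 226, 224, 230 and 196 CPM with radiation, with only the 213 of untreated replicate 1 above the lowest irradiated library. The log2 fold change was 0.41 ± 0.10 (SE, adjusted p = 0.0217). It was 0.34 (adjusted p = 0.0914), under the fold asked for, without Panc02-SIY NT replicate 4, and the adjusted p was 0.252 with only the 2 groups in the fit.

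Ctsa and Ctss in the same macrophages passed the adjusted p but not the fold. Ctsa stood at 344, 358, 374 and 268 CPM without and 402, 403, 431 and 401 CPM with radiation, which did not overlap, a log2 fold change of 0.29 ± 0.09 (SE, adjusted p = 0.0611). Ctss changed by 0.27 ± 0.09 (adjusted p = 0.0722). Ctsc (0.23, 95% interval 0.00 to 0.45), Ctsz (0.17, −0.01 to 0.34), Ctsd (0.15, −0.07 to 0.36) and Ctsh (0.11, −0.14 to 0.35) were not called, and Ctsw was −0.85 ± 0.40 (adjusted p = 0.204). Macrophage markers summed to 9488 to 14142 CPM in untreated and 13569 to 14776 CPM in irradiated libraries of this gate, stromal and carcinoma markers to 150 to 372 and 86.3 to 160 CPM, and their part in these differences was not tested.

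Outside macrophages, 6 pairs in Panc02-SIY had groups that did not overlap without being called. Monocyte Ctsc was 328, 698, 538 and 579 CPM without and 740, 752, 800 and 921 CPM with radiation (0.49 ± 0.16, adjusted p = 0.163), and monocyte Ctsl was 69.0, 68.0, 35.2 and 44.6 against 98.6, 83.0, 75.5 and 76.6 CPM (0.68 ± 0.26, adjusted p = 0.285). DC Ctsc was 117, 103, 59.2 and 68.0 against 171, 211, 257 and 135 CPM (1.12 ± 0.28, adjusted p = 0.205). The makeup of this DC gate differed too. DC1 barcodes were 69.5% of it without and 44.7% with radiation, and DC2 barcodes 6.78% and 23.1%. The part of this in the DC Ctsc difference was not tested. DESeq2 called Ctsc in monocytes and DCs, with adjusted p = 0.077 and 0.0288. Over all classes of this comparison DESeq2 called 2189 gene-by-class pairs and edgeR 2072, and the DESeq2 share of each class is not given here. The other pairs were T cell Ctss (0.22), NK cell Ctsa (−0.27) and NK cell Ctsw (−0.27), each with an adjusted p of at least 0.537. Of all genes tested, 6.77% did not overlap in monocytes, 5.3% in DCs, 17.7% in T cells, 9.52% in NK cells, 3.52% in neutrophils and 7.68% in macrophages. In neutrophils no member was called, and 95% intervals ran from −0.32 to 0.28 for Ctsd and from −0.38 to 0.35 for Ctss.

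In MC38 macrophages the irradiated and untreated libraries were near each other for the abundant members. In this class 18.2% (NT) and 27.3% (RT) of UMIs lay in barcodes that were richer in another MC38 library. The log2 fold changes and 95% intervals were 0.15 (−0.03 to 0.33) for Ctss, 0.00 (−0.22 to 0.22) for Ctsc, 0.08 (−0.10 to 0.25) for Ctsz, 0.16 (−0.10 to 0.41) for Ctsb and 0.19 (0.00 to 0.38) for Ctsl. If the libraries were independent, these data leave room for changes within about these bounds, in either direction. Barcodes were shared between untreated and irradiated libraries, so the intervals may be too narrow and the bounds may not limit the change. T cell Ctsd was the pair whose groups did not overlap: 446, 503, 468 and 504 CPM without and 306, 325, 314 and 417 CPM with radiation, a log2 fold change of −0.47 ± 0.15 (SE, adjusted p = 0.304 by edgeR), where 3.79% of all genes tested did not overlap. T cell Ctsd in Panc02-SIY read 535, 478, 505 and 522 against 371, 458, 486 and 474 CPM, −0.27 ± 0.13 (adjusted p = 0.218). Other unadjusted p under 0.05 in MC38 were those of T cell Ctsc (0.68 ± 0.26), T cell Ctsw (−0.49 ± 0.21), NK cell Ctsa (0.83 ± 0.36) and NK cell Ctsc (−0.71 ± 0.32), none of them called.

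Whether the radiation response of a member differed between the tumors was tested as an interaction, to which the limit of shared MC38 barcodes applies also. It was called by edgeR for 0 of 42 pairs, beside 0.0% of all genes in macrophages, 0.0187% in monocytes, 0.0% in DCs, 0.0231% in T cells and 0.0% in NK cells. By edgeR 6 pairs had an unadjusted p under 0.05 (7.92% of all genes in macrophages, 6.89% in monocytes, 5.66% in DCs, 5.22% in T cells and 5.98% in NK cells). DESeq2 called 1 pair, and its share over all genes is not given here. The DESeq2 call was monocyte Ctsc, whose difference of responses (MC38 minus Panc02-SIY) was −0.66 ± 0.22 in edgeR (SE, adjusted p = 0.443) and −0.65 (adjusted p = 0.0561) in DESeq2. For macrophage Ctsb and Ctsl, called in Panc02-SIY and not in MC38, the differences of responses were −0.30 (95% interval −0.66 to 0.06) and −0.22 (−0.50 to 0.06), so a difference between the tumors was not shown.

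Within the DC gate the barcodes were split into DC1, which cross-present antigen, DC2, which favour MHC class II, and mregDC, mature DCs rich in regulatory molecules. These subsets held 12 to 123 barcodes a group, so counts were pooled over libraries, and the intervals given are exact Poisson 95% intervals that cover counting error only. They count barcodes that recur across libraries each time. Of MC38 DC barcodes, 35 of 80 (NT) and 25 of 70 (RT) were richest in their own library. Ctss was highest in DC2 of every group: 2346 CPM (2170 to 2532) in MC38 NT and 1128 (964 to 1310) in Panc02-SIY NT, against 504 (411 to 611) and 402 (377 to 428) in DC1. In mregDC it was 1291 (1117 to 1485) and 499 (431 to 573) CPM. Within DC2 and mregDC the MC38 value was thus the higher one without radiation, and irradiated mregDC read 1609 (1430 to 1804) against 637 (575 to 704) CPM.

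Ctsc in DC1 differed most between the groups, at 47.8 CPM (39.5 to 57.3) in Panc02-SIY NT, 145 (127 to 164) in Panc02-SIY RT, 318 in MC38 NT and 526 in MC38 RT. The MC38 values rest on 17 (NT) and 19 (RT) DC1 barcodes. In DC2 it ranged from 265 to 407 CPM and in mregDC from 135 to 296 CPM. Ctsh and Ctsz leaned to mregDC in Panc02-SIY: Ctsh was 451 and 448 CPM in mregDC without and with radiation against 124 and 157 CPM in DC1, and Ctsz was 610 and 711 CPM against 270 and 239. In MC38 NT Ctsh was highest in DC2 (692 CPM) and Ctsz in mregDC (790 CPM). Pooled sums allow no test between groups.

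**Figure D5:**
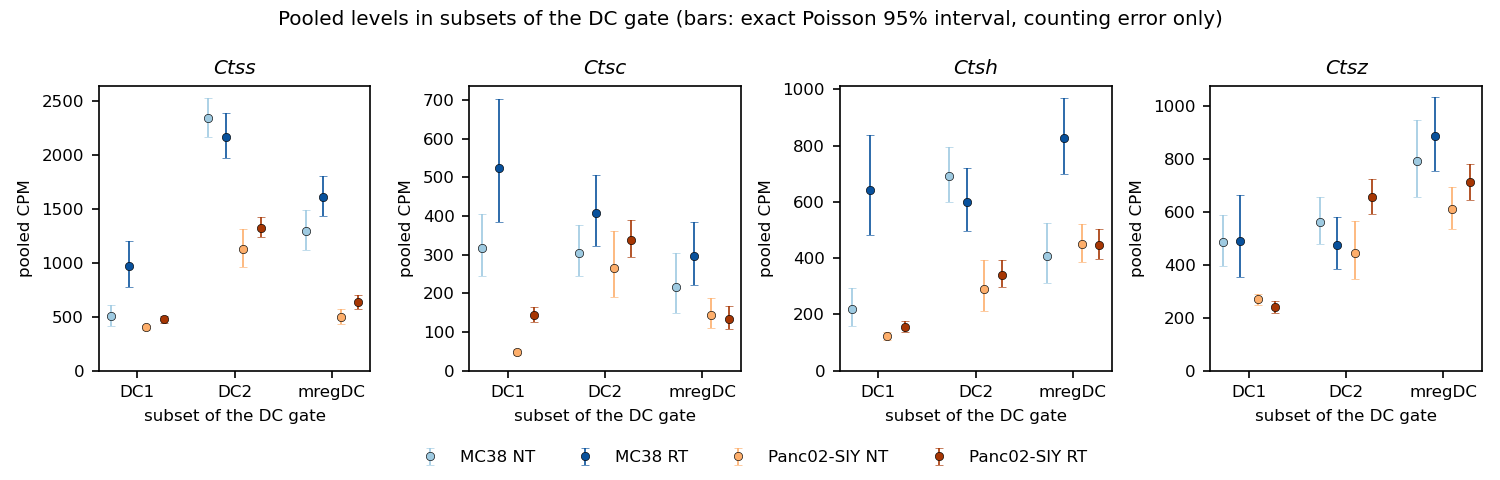
Pooled level (CPM) of Ctss, Ctsc, Ctsh and Ctsz in DC1, DC2 and mregDC barcodes of each group, with exact Poisson 95% intervals as bars. Ctss peaks in DC2 in every group, and Ctsc in DC1 is lowest in Panc02-SIY NT at 47.8 CPM.

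T cell subsets, pooled likewise, differed by member. CD8 T cells held 509 and 325 CPM of Ctsw in MC38 NT and RT and 373 and 380 CPM in Panc02-SIY, while Foxp3-expressing T cells, the regulatory subset, held 84.7 and 11.4 and 33.5 and 23.8 CPM. Ctsz ran the other way, with 483 and 421 CPM in MC38 and 176 and 214 CPM in Panc02-SIY Foxp3-expressing barcodes against 81.6, 107, 27.4 and 31.2 CPM in CD8 T cells. Ctsd in CD8 T cells was 588 and 394 CPM in MC38 NT and RT and 543 and 515 CPM in Panc02-SIY. MC38 gave 22 and 18 Foxp3-expressing and 91 and 111 CD8 barcodes, so its subset values rest on few cells.

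Among the rarest classes, plasmacytoid DCs of Panc02-SIY (11 and 7 barcodes, NT and RT) held 1459 and 1714 CPM of Ctsb and 1199 and 759 CPM of Ctsl. Their Ctsl value was above that of any other class described here, on few cells. Mast cells and basophils (48 and 62 barcodes) held 472 (407 to 545) and 827 (756 to 902) CPM of Ctsd, 333 and 449 CPM of Ctsc and 99.0 and 97.0 CPM of Ctss.

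Other genes of the pathway were read from lists chosen with earlier results of these data known. Cystatins and stefins, the protein inhibitors of cysteine cathepsins, had 2 or 3 members tested per class. Stefin B (Cstb) was higher in MC38 macrophages (622 ± 19.4 against 364 ± 92.5 CPM, SD, n = 4, without radiation; log2 fold change 0.99 and 1.16 without and with it), monocytes (1.98 and 1.70) and T cells (0.96 and 1.10), and cystatin C (Cst3) in macrophages (0.82 and 0.90). After radiation 2 of 2 tested in DCs and 2 of 3 in T cells and NK cells were higher in MC38. The shares of all genes called higher stand with the counts of called members. With radiation Cst3 fell in Panc02-SIY monocytes, from 3056 ± 462 to 2256 ± 171 CPM (−0.50 ± 0.12, SE, adjusted p = 0.0524), the only inhibitor called in either radiation comparison.

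Of the other lysosomal genes, 18 of 48 tested in macrophages were higher and 12 lower in MC38 without radiation, and 14 and 14 with it. Their median log2 fold changes were 0.25 and 0.07, beside −0.04 and −0.05 over all genes. The lysosomal acid phosphatase Acp5 (−1.80 and −2.06) and the palmitoyl thioesterase Ppt1 (−1.77 and −1.78) were the furthest down. Counts in monocytes were 11 higher and 6 lower of 37 without and 10 and 7 with radiation, in DCs 3 and 2, then 3 and 0 of 28, in T cells 8 and 3, then 11 and 4 of 43, and in NK cells 2 and 3, then 6 and 5 of 38. Over all genes tested, the shares called higher and lower were 22.9% and 28.0% in macrophages without radiation and 25.4% and 29.5% with it, and those of the other classes stand with the counts of called members.

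In Panc02-SIY macrophages 8 of the 48 lysosomal genes were higher with radiation and 0 lower, with a median log2 fold change of 0.23 beside −0.01 over all genes and 5.08% of all genes called higher. Acp2, another lysosomal acid phosphatase, went from 122 ± 25.2 to 195 ± 33.8 CPM (0.70 ± 0.15, SE, adjusted p = 0.00926), and the iduronidase Idua from 9.17 ± 2.08 to 16.7 ± 4.62 CPM (0.82 ± 0.23, adjusted p = 0.0352). In MC38 macrophages 2 of 48 were called, beside 3.51% of all genes. Both were higher: the lysosomal membrane protein Laptm5 (0.43 ± 0.08) and the cholesterol carrier Npc2 (0.40 ± 0.10). In Panc02-SIY T cells Laptm5 rose by 0.55 and the sulfatase Arsb fell by 0.59 on the log2 scale. There 2 of 43 were higher and 1 lower, beside 8.85% of all genes called in either direction.

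Among sorting receptors and regulators of lysosomal genes, Sort1 and Igf2r were lower in MC38 macrophages. Sort1 (sortilin) stood at 1.3 to 2.91 CPM in MC38 NT and 9.89 to 27.7 CPM in Panc02-SIY NT macrophages (−2.98 ± 0.34, and −3.76 ± 0.39 with radiation), and Igf2r, the large mannose 6-phosphate receptor that delivers cathepsin precursors, at 1.80 to 5.20 against 13.2 to 48.6 CPM (−2.69 ± 0.35, and −2.0 ± 0.38). Both are low-count genes. The list counted 1 higher and 4 lower of 10 in macrophages without and 0 and 4 with radiation, 1 and 1, then 0 and 2 of 6 in monocytes, 1 lower of 6 in NK cells without radiation, and 0 of 3 in DCs and 0 of 7 in T cells, against 28.0% and 29.5% of all macrophage genes called lower. Sort1 was lower in MC38 monocytes also (−3.82 and −2.29), and the regulator Tfec was higher in irradiated Panc02-SIY monocytes (1.34 ± 0.37, adjusted p = 0.094).

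One list held both class II loading genes, the partners of Ctss in antigen-presenting cells, and granule genes, among them the granzymes that cathepsin C activates. In MC38 DCs 5 of its 8 tested genes were called higher in both comparisons, all of them class II genes, with H2-DMb2 at 2.40 and 1.77, H2-DMb1 at 1.25 without and H2-Oa at 1.61 with radiation. H2-DMb2 is itself a DC2 marker of the gate. Of all genes tested in DCs, 6.59% without and 7.03% with radiation were called higher. The shares of the other classes stand with the counts of called members. In macrophages 9 of 13 genes of the list were higher and 3 lower without radiation and 9 higher and 4 lower with it, where the granule genes Srgn, Prtn3 and Gzmc were among the higher and Prf1, Gzmb and Gzma among the lower. Counts were 4 and 1, then 7 and 1 of 9 in monocytes and 3 and 1, then 4 and 0 of 10 in T cells, where the untreated calls were Srgn, Gzmc and H2-Oa higher and Gzma lower. In NK cells the calls were granule genes alone, Gzmb without radiation and Srgn and Gzmb with it, of 8 tested. With radiation Cd74, the invariant chain that Ctss cuts, rose in MC38 macrophages by 0.39, and Srgn, the core of granule proteoglycan, by 0.43. Of the granule genes, Gzmb and Prf1 rose with radiation in NK cells of both tumors, Gzmb by 0.85 (MC38) and 1.18 (Panc02-SIY) and Prf1 by 0.99 (MC38) and 0.85 (Panc02-SIY). No cathepsin was called in NK cells between irradiated and untreated libraries of either tumor, where 0.211% (MC38) and 0.858% (Panc02-SIY) of all genes were called.

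The list of other cathepsin genes held 12. Ctso gave 5185 UMIs, with 89.7 CPM in B cells, Ctse 759 UMIs, Ctsf 272 UMIs, Ctsg 7 UMIs and Cts8 4 UMIs, and 7 genes known from the rodent placenta gave 0, which allows up to 0.016 CPM over all libraries. Ctsf was lower in irradiated MC38 than in irradiated Panc02-SIY macrophages (2.10 ± 0.513 against 5.84 ± 1.14 CPM, SD, n = 4; −1.07 ± 0.37, adjusted p = 0.0205).

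The genes most like each member were sought over 25 class-by-group means among 9232 genes, as Pearson's r of log2(CPM + 10), which is a description since the points share libraries and depth. Ctss lay closest to Ctsz (0.97), then Tgfbi and Slc29a3 (0.95 each), and Ctsz to Ctss, Ctsh (0.96) and Ifngr2 (0.95). Ctsa and Ctsb were closest to each other (0.95), followed for both by Klra2 and Csf1r. Ctsh was followed by Ctsz and Ly86 (0.96 each), Ctsl by Tgfbi and Tmem86a (0.95 each) and Ctsc by Tceal8 (0.93), Plbd2 (0.91) and Cfb (0.90). Ctsd stood nearest to the chemokines Ccl4 (0.87) and Ccl3 (0.86), and Ctsw to Nkg7, Sh2d1a and Fasl (0.98 each).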

How the data were processed

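UMI counts per gene and barcode were used as the authors deposited them, 1 raw matrix per library, made per the submitters' processing notes with Cell Ranger 3.1.0 and bcl2fastq 2.20.0 on mm10. The aggregated matrix was not used. Ambient RNA, cell calling and sequencing depth act on these counts before any step here.

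All 28678 barcodes were kept. A barcode took the class of which it expressed most markers (8 per list, 7 for DC2 and plasmacytoid DC), with at least 3 markers and a lead of at least 1; 4923 stayed outside. No doublet caller was run. Counts were summed per class and library with at least 10 barcodes, filtered at a minimum count of 10, scaled by TMM and fitted over all groups without covariates with edgeR 4.0.16 (quasi-likelihood, Benjamini-Hochberg) in R 4.3.3; 4279 to 11037 genes were tested per class. Alternatives included DESeq2 1.42.0. Levels, permutation tests and figures used Python 3.11.15 with numpy 2.4.6, pandas 2.3.3, scipy 1.17.1 and matplotlib 3.10.9. The fits were tested on simulated data.

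The members and the lists of markers and other genes (cystatins, lysosomal genes, sorting and regulators, class II and granule partners, other cathepsins) were chosen with earlier results of these data known. Named genes were the 10 members, the 3 genes most like each, and up to 2 called genes per list, class and comparison whose groups did not overlap. Some genes of these lists are not reported here. Positions come from GENCODE vM21 and promoter windows from RefSeq, both on GRCm38. Intervals and floors of 3 counts cover counting error only.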

Additional observations from a re-analysis of the deposited data

Results flagged for a closer look

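In 14 of 184 sets of 4 libraries (7.61%; chance marks about 1 in 20), the lowest or highest library lay apart from the other 3 by more than Dixon's 95% limit on the gap over the range. In macrophages these were Ctsb in MC38 RT replicate 3 (1550 CPM, the others 1723 to 1743), Ctsa in Panc02-SIY RT replicate 3 (431 CPM, the others 401 to 403) and Ctsl in Panc02-SIY RT replicate 4 (196 CPM, the others 224 to 230). In monocytes, Ctsd stood out high in MC38 NT replicate 1 (295 CPM, the others 215 to 225) and Ctsa in Panc02-SIY RT replicate 3 (348 CPM, the others 272 to 283). In neutrophils the set was Ctsb with Panc02-SIY RT replicate 4 high (492 CPM, the others 396 to 409).

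In DCs, Ctsb was low in Panc02-SIY NT replicate 3 (132 CPM, the others 169 to 172) and Ctsz in Panc02-SIY RT replicate 4 (347 CPM, the others 512 to 525). T cells gave Ctsl high in MC38 NT replicate 4 (64.7 CPM, the others 9.38 to 15.1), Ctsc low in Panc02-SIY RT replicate 2 (105 CPM, the others 121 to 124) and Ctsw low in Panc02-SIY RT replicate 1 (298 CPM, the others 345 to 351). NK cells gave Ctsb low in MC38 RT replicate 1 (24.4 CPM, the others 110 to 122) and high in Panc02-SIY NT replicate 4 (95 CPM, the others 60.5 to 62.3), and B cells gave Ctsc low in Panc02-SIY RT replicate 1 (144.5 CPM, the others 176 to 182). Panc02-SIY RT replicate 4 appeared in 3 of the 14 sets, and Panc02-SIY RT replicates 1 and 3 in 2 each.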

How the results depend on the processing

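Of 1620 refits of the 55 called member differences, 1468 kept direction and call, 150 kept direction only and 2 turned: without the 5% of barcodes with most UMIs, the untreated macrophage differences between tumors became −4.66e-05 for Ctsb and −0.0155 for Ctsd. The tumor counts of 26 and 27 calls ranged over all settings from 20 to 28 and from 21 to 27. The 2 radiation calls in Panc02-SIY became 0 with a log2 fold above 0.58, with only the 2 groups in the fit and without the 5% of barcodes with most UMIs, and 4 with DESeq2 and with no filter on low counts. Leaving out 1 library gave 0 to 4 calls, with 0 without Panc02-SIY NT replicate 4, 4 without Panc02-SIY RT replicate 4 and 3 without MC38 NT replicate 1 or 3 or Panc02-SIY NT replicate 1 or 2. Radiation in MC38 gave 0 calls under every setting run, and the interaction 1, monocyte Ctsc, with DESeq2 (−0.65, adjusted p = 0.0561) and with no filter (−0.73, adjusted p = 0.085). The share of all genes called under each setting is not given here, so these counts describe the members only.

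Of neighbouring classes, 27 of 40 pairs differed in MC38, but 0 of 11 with each barcode in its richest library, where few libraries remained, and 20 to 27 with 1 library left out. In Panc02-SIY, 29 of 60 became 0 to 25 with 1 library left out, which raises the smallest p: 0 without NT replicate 3 or 4 or RT replicate 1, 3 or 4, 19 without RT replicate 2, 21 without NT replicate 1 and 25 without NT replicate 2.

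No label pairs same-numbered libraries, and they were not treated as paired, since not every pair's deviations correlated over 0.1: correlations ran from −0.10 to 0.14 in MC38 (4 of 20 over 0.1) and −0.20 to 0.66 in Panc02-SIY (13 of 24, with 3 of 4 pairs in macrophages, T cells and NK cells). A library correlated best with its own number in 20 of 40 cases in MC38 and 27 of 48 in Panc02-SIY. By class this ran from 1 of 8 (NK cells) to 8 of 8 (T cells) in MC38. In Panc02-SIY it ran from 2 of 8 (neutrophils) to 7 of 8 (NK cells). Replicate 4 held the most barcodes and the most UMIs of each group. Whether same-numbered libraries share a batch or a pairing was not tested. With the replicate block, calls numbered 26 and 26 between tumors, 0 in MC38, 3 in Panc02-SIY and 0 for the interaction, without the calls of untreated NK cell Ctsw (0.44, adjusted p = 0.12) and irradiated NK cell Ctsb (0.61, adjusted p = 0.132). The share of all genes called with the block is not given here. Scaling by library size alone moved the median of all genes by −0.29 to 0.09 and the share of called genes higher in MC38 from 47.5% to 35.4% without and from 48.5% to 28.4% with radiation, while 20 of 22 and 23 of 25 called members were higher. Irradiated DCs could not be fitted with each barcode in its richest library. Shallow MC38 lymphocyte and DC sums limit the precision of their values.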
